A study of Danio rerio with 26 samples.

Results

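In zebrafish livers, 60 transcripts stood above every control and every withdrawal library while the fish were held in alcohol, and no transcript stood below them by the same limit. They were chosen from 57918 liver transcripts by a rule on the deposited values in TPM (a unit of RNA-seq in which each library's values are divided by transcript length and scaled to the same total). A transcript counted as raised when the lowest of the 4 alcohol-exposed livers held at least 2 TPM and at least 1.5 times the highest of the 8 other livers. A transcript counted as lowered when the lowest of those 8 held at least 2 TPM and at least 1.5 times the highest exposed liver. The comparisons of exposed livers with control and withdrawal livers are therefore how the transcripts were found, and they are given below as values with no test. The numbers moved with scaling: after median-of-ratios rescaling of the libraries, 40 transcripts met the raised rule, 38 of the 60 among them, and 3 met the lowered rule.

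The fish were of the wild-type short-fin AB strain, with males and females kept apart, and each sex had a control, an alcohol-exposed and a withdrawal group. Exposed fish lived in water with 0.5% ethanol for 9 weeks and were moved to fresh ethanol water each day. Control fish were moved daily in the same way into water with none, and both sets were kept at 28 °C under 14 h of light and 10 h of dark, with 30 fish to a tank. Fish of these groups were also bred during the later weeks of the exposure. The sources used here do not give the length of the withdrawal or the number of fish in it. Non-stranded TruSeq RNA libraries were made from tissue pooled within each group, with 2 liver libraries in each of the 6 groups and 14 brain libraries in all. Nothing in the labels says that libraries of a group came from separate fish, so the p-values measure the spread between libraries, which may be technical.

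The liver is the main site of ethanol oxidation in vertebrates. Alcohol dehydrogenases and cytochrome P450 enzymes turn ethanol into acetaldehyde, and aldehyde dehydrogenases turn that into acetate. These steps change the redox state of the hepatocyte and, with long exposure, go together with altered lipid handling and stress responses, in fish as in mammals. The deposited tables name transcripts by Ensembl identifier and do not pair them with gene names, so none of the 60 is assigned to these or other pathways here, and the liver label was not checked against marker genes. At most 2 raised transcripts are given by identifier, and the others by their rank in separation, which is (lowest exposed TPM + 1) divided by (highest other TPM + 1).

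Of the 8447 transcripts with at least 2 TPM in all 4 exposed livers, 0.71% met the rule for raised. Of the 5088 with at least 2 TPM in all 8 other livers, 0.0% met the rule for lowered. Applied to withdrawal livers against the 8 control and exposed livers, the same rule gave 234 raised and 43 lowered transcripts. The 60 were a small part of the liver's RNA. Their summed level ran from 259 to 404 TPM in the 4 control livers and from 334 to 430 TPM in the 4 withdrawal livers. It was 1967 and 2914 TPM in the exposed males and 1584 and 1628 TPM in the exposed females. As a share of all TPM this was 0.158% to 0.291% in exposed livers and 0.0259% to 0.0430% in the others. In bulk tissue, fewer cells of a type and less RNA per cell cannot be told apart, nor can more cells and more RNA per cell.

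Most of the 60 were of low abundance even when raised. The lowest exposed value lay between 2 and 5 TPM for 23 of them, between 5 and 20 TPM for 26, between 20 and 100 TPM for 9 and above that for 2, with a median of 6.45 TPM. The 6 most abundant carried 44.4% to 58.9% of the summed level in each exposed liver. The highest of the 8 other livers held 0.86 to 127 TPM, with a median of 3.13 TPM. None of the 60 was listed at 0 in all 8 other livers, and 56 reached 1 TPM in at least 2 of them, so most had a measurable level outside exposure.

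The gap at the limit was narrow for many and wide for few. The ratio of the lowest exposed to the highest other liver ran from 1.5 to 5.87, with a median of 1.81; it was under 1.6 for 16 transcripts, at least 2 for 22 and at least 3 for 7. The member nearest to the limit had 3.92 to 4.71 TPM in exposed livers against a highest other value of 2.61 TPM. The nearest transcript left out had 86.04 to 140.93 TPM in exposed livers against 57.37 TPM in a control female liver. The highest other library was a control male for 14 transcripts, a control female for 12, a withdrawal male for 20 and a withdrawal female for 14, so no group alone set the limit.

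**Figure D1:**
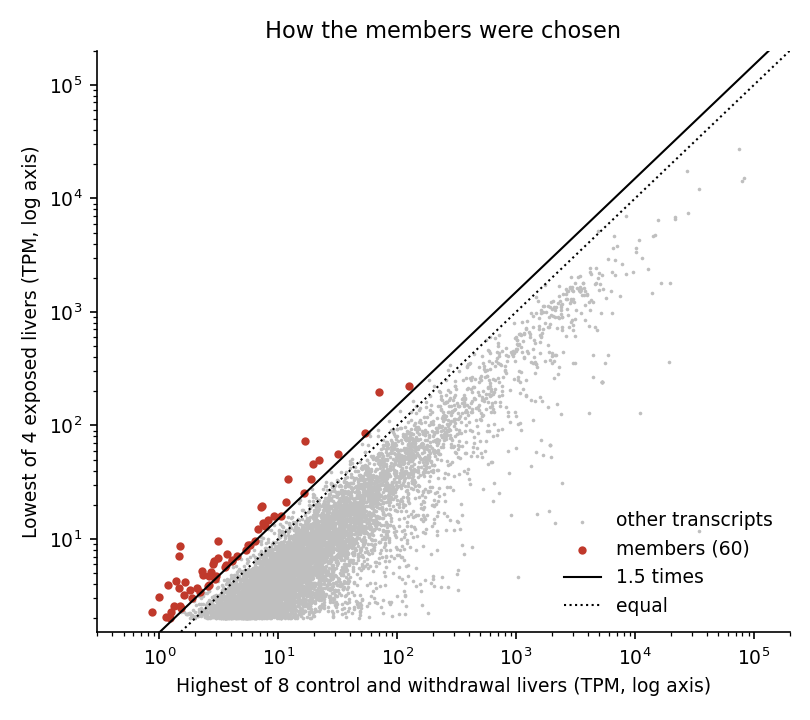
Each point is a liver transcript, with the highest deposited TPM of the 8 control and withdrawal livers on the horizontal axis and the lowest of the 4 exposed livers on the vertical axis, both logarithmic. The 60 members lie above the line of 1.5 times, and 22 of them at a ratio of 2 or more.

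In the lowered direction the nearest transcript was ENSDART00000141854.1. It held 368.45 and 256.04 TPM in control males, 280.39 and 229.25 TPM in control females, and 349.85, 409.56, 322.89 and 427.9 TPM in the withdrawal livers. The exposed males held 150.87 and 139.89 TPM and the exposed females 164.45 and 152.61 TPM. Every exposed liver lay below every other liver, but the lowest other was 1.39 times the highest exposed, short of the limit. The next transcript reached 1.32 times, and the lowered direction is not described further.

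Among the raised transcripts, ENSDART00000170216.1 had the widest separation. It held 16.70 and 14.60 TPM in control males and 16.07 and 11.45 TPM in control females. Exposed males held 97.08 and 202.5 TPM and exposed females 73.45 and 75.07 TPM, which put even the lowest exposed liver at 4.40 times the highest other. Withdrawal males held 6.26 and 8.73 TPM and withdrawal females 9.46 and 11.47 TPM. The exposed mean of 112 ± 61.3 TPM (SD, n = 4) was 7.62 times the control mean of 14.7 ± 2.34 TPM (SD, n = 4) and 12.5 times the withdrawal mean of 8.98 ± 2.15 TPM (SD, n = 4).

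The most abundant raised transcript was ENSDART00000032996.5, by the lowest exposed value. Control males held 124.23 and 126.85 TPM, and control females held 56.59 and 60.69 TPM. Exposed males held 227.78 and 354.22 TPM, and exposed females held 221.66 and 231.7 TPM. Withdrawal males held 88.39 and 126.85 TPM and withdrawal females 56.03 and 54.23 TPM, so no withdrawal liver exceeded the higher control liver of its sex. The exposed mean was 2.81 times the control mean and 3.18 times the withdrawal mean.

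The next in separation showed different shapes. The transcript ranked 2 stood at 40.46 and 35.99 TPM in exposed males and 8.69 and 9.36 TPM in exposed females. Its controls held 0.81 to 1.48 TPM and its withdrawal livers 0 to 0.95 TPM, so it was low but detected in most unexposed livers. The transcript ranked 3 went the other way by sex, with 7.05 and 14.95 TPM in exposed males, 29.25 and 28.69 TPM in exposed females and at most 1.46 TPM elsewhere. The transcript ranked 6 was even across the exposed livers, with 9.98 and 10.69 TPM in males and 9.56 and 9.82 TPM in females against at most 3.14 TPM elsewhere.

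The transcript ranked 4 was the second most abundant, with 430.34 and 649.84 TPM in exposed males and 202.41 and 196.22 TPM in exposed females. Its controls held 30.75 to 62.65 TPM, its withdrawal males 67.54 and 70.75 TPM and its withdrawal females 26.13 and 25.43 TPM. The transcript ranked 5 held 155.33 and 127.87 TPM in exposed males and 33.52 and 41.12 TPM in exposed females, against 1.34 to 11.98 TPM in the other livers. The transcript ranked 7 held 70.96 and 133.65 TPM in exposed males and 19.17 and 20.08 TPM in exposed females, against 3.64 to 7.14 TPM elsewhere. The transcript ranked 8 held 50.75 and 31.75 TPM in exposed males and 19.36 and 21.47 TPM in exposed females, with its highest other value, 7.25 TPM, in a withdrawal female. In these 4 transcripts both exposed males lay above both exposed females, as for 36.5% of all tested liver transcripts.

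The largest ratio of the exposed to the control mean belonged to the transcript ranked 46. It held 6.37 and 6.34 TPM in exposed males but 325.06 and 352.95 TPM in exposed females. Control males held 0.08 and 0.38 TPM, both control females were listed at 0, and withdrawal livers held 0.47 to 4.07 TPM. Its separation was set by the exposed males, the lower of which held 1.56 times the highest withdrawal male. Over all 60, the ratio of the exposed to the control mean ran from 2.03 to 1502 with a median of 6.18, and the ratio of the exposed to the withdrawal mean from 2.01 to 73.2 with a median of 4.67.

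**Figure D2:**
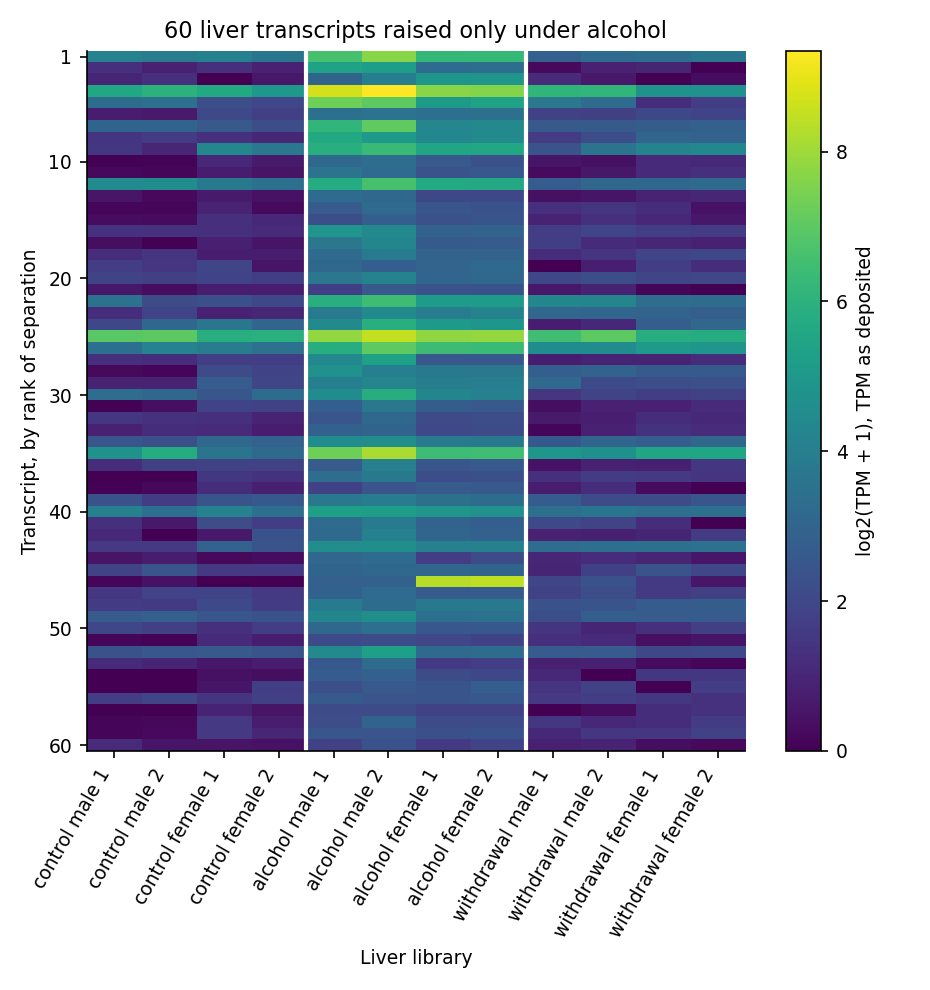
Each row is 1 of the 60 raised transcripts, ordered by separation, and each column 1 of the 12 liver libraries; colour gives log2(TPM + 1) of the deposited values. The 4 exposed columns are brighter than the control and withdrawal columns in every row, and both exposed males lie above both exposed females in 45 rows.

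The rule took the exposed livers together and did not set the sexes against each other. Exposed males held the higher levels for most of the 60. Both exposed males lay above both exposed females for 45 transcripts, a pattern shown by 36.5% of all 21158 liver transcripts tested. Both exposed females lay above both exposed males for 3, against 29.0% of all tested, and the ranges overlapped for 12. A female liver was the lowest exposed library, the one the rule leaned on, for 48 of the 60. The share of all tested transcripts with a female liver lowest was not counted, so this is not read as a trait of the 60.

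The sexes under alcohol were compared with limma on log2(TPM + 1) after median-of-ratios rescaling, with Benjamini-Hochberg adjustment over all 21158 transcripts. Of the 60, 22 were called at an adjusted p under 0.05, and 29.6% of all tested transcripts were called. Those lower in females numbered 20, or 33.3% of the 60 beside 14.3% of all tested. Those higher in females numbered 2, the transcripts ranked 46 and 3, beside 15.3% of all tested. The median female minus male difference of the 60 under alcohol was -0.49 on the rescaled log2 scale, beside 0.00 for all tested. The same median was -0.09 in control livers, beside 0.07 for all tested, and 0.01 in withdrawal livers, beside -0.002 for all tested. The rule kept the 60 low outside exposure: their median level was 1.395 to 2.305 TPM in control and withdrawal livers and 7.025 to 14.01 TPM in exposed livers. At such low levels log2(TPM + 1) understates a difference, so these medians are not compared between exposures. Whether the sex difference of the 60 under alcohol differed from that in the other exposures was not tested.

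The transcript ranked 46 was higher in exposed females by 5.62 (log2, SE 0.282, limma adjusted p = 2.84e-06). The transcript ranked 3 was higher in exposed females by 1.51 (log2, SE 0.34, limma adjusted p = 0.0113), a call that was lost when exposed male 1, exposed female 1 or exposed female 2 was left out. The transcript ranked 27 held 19.39 and 39.63 TPM in exposed males and 4.85 and 4.77 TPM in exposed females, and its log2 difference was -2.17 (SE 0.263, limma adjusted p = 0.000571). The transcript ranked 7 followed with -2.12 (log2, SE 0.245, limma adjusted p = 0.000444). ENSDART00000170216.1 had -0.78, with a limma adjusted p of 0.0779, and ENSDART00000032996.5 had -0.20, with a limma adjusted p of 0.548; neither passed the test.

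The exposed libraries of a sex were not equally alike. The ratio of exposed male 2 to exposed male 1 had a median of 1.38 over the 60 and ranged from 0.603 to 2.88. Over all tested transcripts its median was 1.05. Male 2 was the higher for 46 of the 60, and the share of all tested transcripts with this order was not counted. The ratio of exposed female 2 to exposed female 1 had a median of 1.03, beside 1.02 over all tested. The exposed female libraries were close to each other throughout, with a robust SD of the log2 ratio of 0.0789 over the 640 transcripts at 100 TPM or more, and the withdrawal female pair was similar at 0.0876. The other liver pairs had 0.244 to 0.516. TPM holds no counts, so whether those pairs differ by more than sampling noise could not be tested. With each near-identical pair averaged and counted as 1 library, the median female minus male difference (log2) of the 60 was -0.48. It was -0.52 without exposed female 1 and -0.45 without exposed female 2. Without exposed male 1 it was -0.71 and without exposed male 2 it was -0.26. Its size thus depended on which exposed male was kept. Over all tested transcripts the median was 0.00 in each of these repeats.

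**Figure D3:**
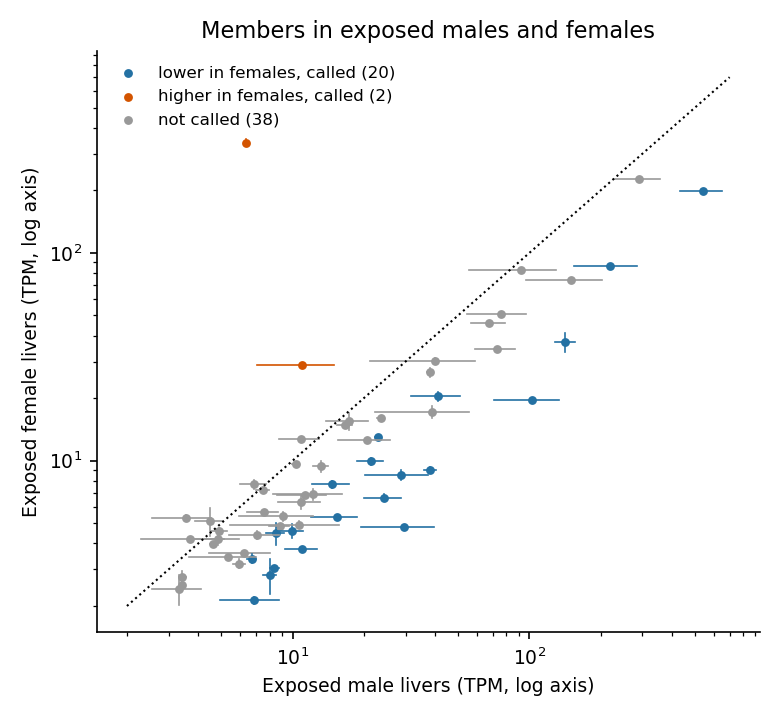
Each point is 1 of the 60 raised transcripts, with its mean TPM in the 2 exposed male livers and in the 2 exposed female livers on logarithmic axes, and lines from the lower to the higher library. Colours mark the 20 called lower and the 2 called higher in females; most points lie on the male side of the dotted line of equality, and the transcript ranked 46 lies far on the female side.

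The rule capped control and withdrawal livers alike below the lowest exposed liver and did not compare them with each other. That withdrawal livers lay below exposed livers was thus fixed by the choice of the transcripts, and the comparison of withdrawal with control is made within values under that cap. Over both sexes, limma called 32 of the 60 between withdrawal and control livers at an adjusted p under 0.05, or 53.3%, beside 62.2% of all tested transcripts. Of these, 15 of the 60 were higher after withdrawal, beside 32.8% of all tested, and 17 were lower, beside 29.4%. With a pseudocount of 0.1 in place of 1, 63.3% of the 60 were called, beside 60.4% of all tested. With no filter on low values, 28 were called, beside 15659 of 47983, again the larger share. With a pseudocount of 5, 22 were called, beside 13030 of 21158, a smaller share. With at least 5 TPM in 2 libraries, 29 of 50 members were called, beside 6931 of 9876, also smaller. Which share was the larger thus depended on such settings. The median log2 difference was -0.14, beside 0.04 over all tested. The split depended on scaling: without rescaling, 24 were higher, beside 42.0% of all tested, and 5 lower, beside 17.6%, with medians of 0.15 for the 60 and 0.30 for all tested. With quantile normalisation 11 were higher, beside 28.9% of all tested, and 22 lower, beside 31.6%.

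By deposited means, the withdrawal level lay within 1.5 times of the control level for 23 of the 60, a larger share than the 30.6% of all tested. It lay above that for 26 of the 60, beside 46.6%, and below it for 11 of the 60, beside 22.8%. Both of these shares were smaller than those of all tested. The ratio ran from 0.310 to 20.5 with a median of 1.13, beside a median of 1.35 over the 20731 tested transcripts with a control mean above 0. A typical tested transcript thus held a higher deposited TPM after withdrawal, though every library is scaled to the same total. All 4 withdrawal livers lay above all 4 control livers for 9 of the 60 transcripts, beside 19.8% of all tested. All 4 lay below for 3 of the 60, beside 4.61%.

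The transcripts ranked 23 and 28 had the largest log2 rises over control among those called. The transcript ranked 23 held 0.81 to 2.66 TPM in control livers, 13.79 to 20.76 TPM in exposed livers and 6.14 to 7.41 TPM in withdrawal livers, and its withdrawal minus control difference was 1.43 (log2, SE 0.172, limma adjusted p = 0.000181). The transcript ranked 28 held 0.17 and 0.11 TPM in control males, 3.53 and 2.74 TPM in control females, and its withdrawal livers held 5.27 to 6.76 TPM, with a difference of 1.41 (log2, SE 0.151, limma adjusted p = 0.000101). Its rise was 2.52 in males and 0.30 in females, where it was not called (limma adjusted p = 0.315). The transcript ranked 23 was called in both sexes, at 1.16 in males and 1.70 in females. Both transcripts stood in withdrawal livers between their control and exposed levels, and the exposed side of this was fixed by the rule.

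At the other end, the transcript ranked 30 held 4.71 to 9.16 TPM in control livers, 16.01 to 55.55 TPM in exposed livers and 1.82 to 2.73 TPM in withdrawal livers, a difference of -1.69 (log2, SE 0.304, limma adjusted p = 0.0015). The transcript ranked 12 held 10.02 to 22.12 TPM in control livers, 49.49 to 97.09 TPM in exposed livers and 5.53 to 8.40 TPM in withdrawal livers, a difference of -1.42 (log2, SE 0.159, limma adjusted p = 0.000126). For both, every withdrawal liver lay below every control liver. ENSDART00000170216.1 was lower after withdrawal than in controls by -1.07 (log2, SE 0.206, limma adjusted p = 0.00207). ENSDART00000032996.5 was lower by -0.60 (log2, SE 0.154, limma adjusted p = 0.009), but this call was lost without rescaling, at -0.17 with an adjusted p of 0.412.

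**Figure D4:**
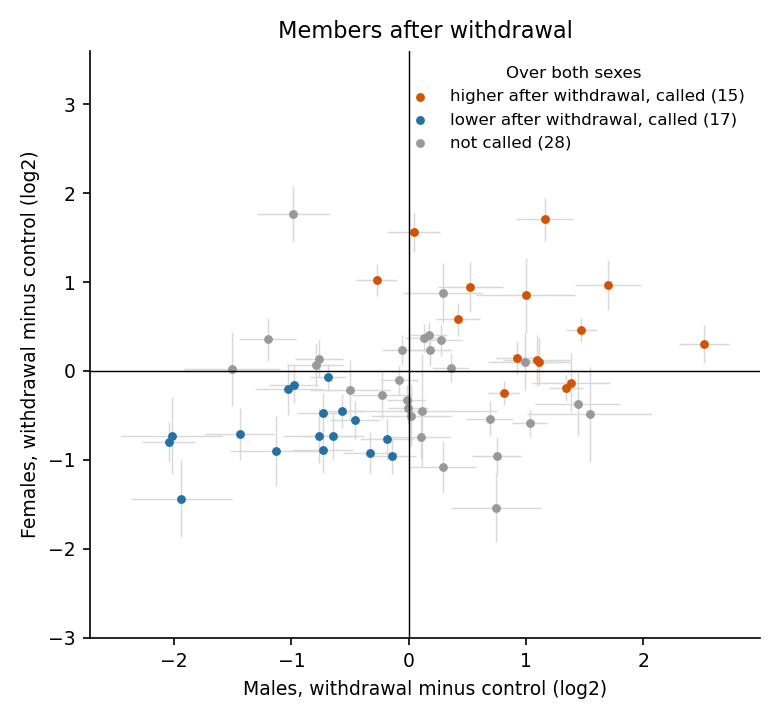
Each point is 1 of the 60 raised transcripts, with the log2 difference between withdrawal and control livers in males on the horizontal axis and in females on the vertical axis, bars giving the SE and colours the calls over both sexes (15 higher, 17 lower, 28 not called). Points spread over both directions.

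Within males, 32 of the 60 were called by limma, or 53.3%, beside 61.5% of all tested transcripts. After withdrawal 16 were higher, or 26.7% beside 33.4% of all tested, and 16 lower, or 26.7% beside 28.1%. Within females, 18 were called, or 30.0%, beside 33.7% of all tested. Here 8 were higher, or 13.3% beside 17.0% of all tested, and 10 lower, or 16.7% beside 16.7%. Calls in both sexes went the same way for 6 transcripts and opposite ways for 3, while 23 were called in males alone and 9 in females alone. The shares of all tested transcripts with these patterns were not counted, so they are not read as a trait of the 60. A limma test of the female minus male difference, added after seeing the data, called 21 of the 60, beside 50.4% of all tested. The control male livers stood apart from the other 10 on the first principal component of all liver transcripts, which held 37.6% of the variance. They had scores of 150 and 158, while no other liver scored above 18.8. Both are on the control side of the male and of the pooled comparison, and the female values do not use their levels. Their part in the pooled and male counts was not tested. With the female pairs averaged, 19 transcripts were called over both sexes, beside 51.8% of all tested, and 4 within females, beside 13.3%.

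The same transcripts were measured in the brain, in libraries the rule did not use. Of the 60, 57 passed the brain filter of at least 1 TPM in at least 2 libraries, beside 91.5% of all transcripts tested in the liver. For 45 of the 60, the mean level was higher in control brain than in control liver, beside 72.9% of all transcripts tested in the liver. Limma called 40 of the 57 between exposed and control brains over both sexes at an adjusted p under 0.05, or 70.2%, beside 53.9% of the 36682 transcripts tested. Of these, 23 were higher in exposed brains, or 40.4% beside 28.0% of all tested, and 17 were lower, or 29.8% beside 25.9%. With a filter of at least 5 TPM in 2 libraries, 37 of 51 members were called, beside 17261 of all 25183 tested. Under that filter the share of the members lay closer to that of all tested. There 20 members were higher, beside 8331 of all tested, and 17 lower, beside 8930. After rescaling, the rise in the liver was thus not matched by a single direction in the brain, and other scalings gave other splits, given below.

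The brain calls differed in abundance. The 23 called higher had control-brain means of 0.174 to 13.3 TPM, with a median of 3.25 TPM, and the 17 called lower had 6.69 to 865 TPM, with a median of 35.1 TPM. The levels of all brain transcripts called in each direction were not compared, so this split is not read as particular to the members. Transcripts at 1 TPM or more numbered 32287 to 33304 in exposed brains and 22579 to 27740 in the others. The scale factors of the exposed brains were 2.04 to 2.18 and those of the other brains 0.600 to 0.946, and the split moved with scaling. Without rescaling, 45 were higher and 4 lower, or 78.9% and 7.02% beside 72.8% and 8.59% of all tested. With quantile normalisation, 33 were higher and 11 lower, or 57.9% and 19.3% beside 26.8% and 17.2%. The factor set all exposed brains apart from the others, so the exposure and any difference in library preparation cannot be told apart there.

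By deposited values, all 4 exposed brains lay above all 5 control brains for 36 of the 57, beside 57.1% of all tested, and below them for 1, beside 4.95%. After rescaling these counts were 16 of the 57, beside 12.6% of all tested, and 14 of the 57, beside 18.7%. Both shares of the 57 were above those of all tested. The rule that chose the liver transcripts, applied to the brain, was met by 18 of the 49 members with at least 2 TPM in all 4 exposed brains. That is 36.7%, beside 45.5% of all brain transcripts at that level.

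**Figure D5:**
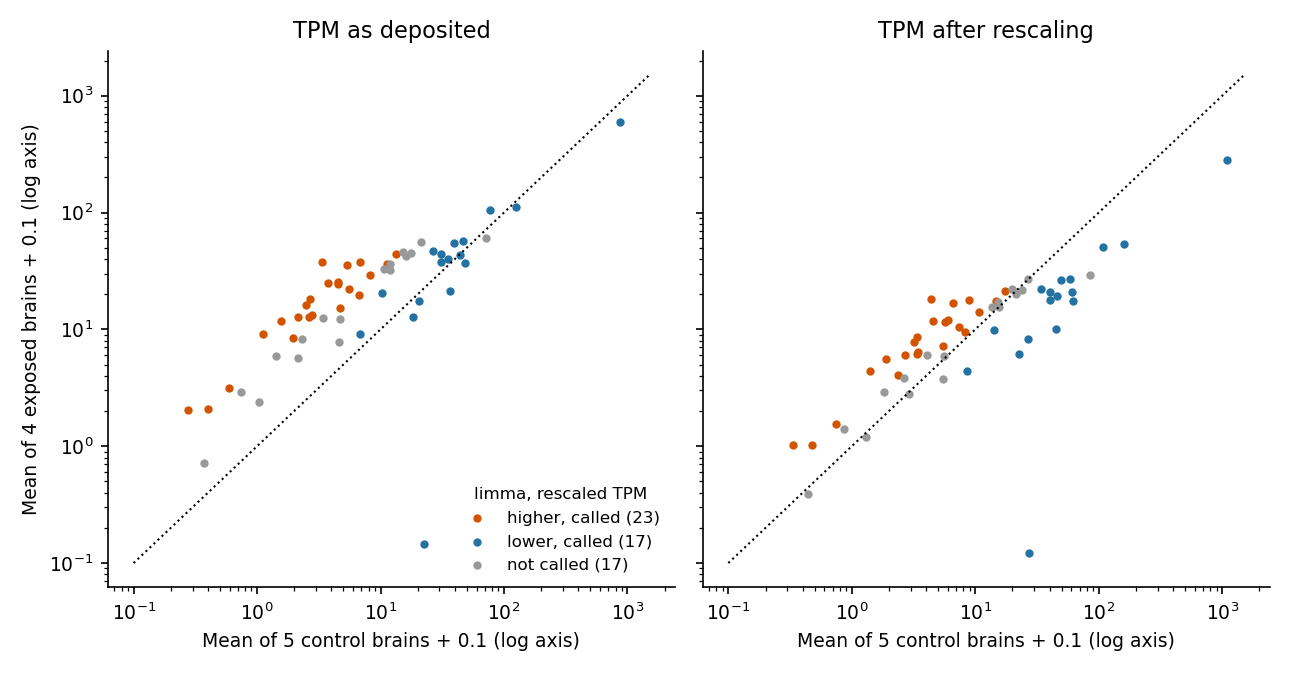
Each point is 1 of the 57 raised liver transcripts tested in the brain, with its mean TPM + 0.1 in the 5 control brains on the horizontal axis and in the 4 exposed brains on the vertical axis, both logarithmic, as deposited on the left and after rescaling on the right. The 23 called higher lie at low control levels and the 17 called lower mostly at higher levels, and rescaling moves all points down against the dotted line of equality.

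The transcript ranked 44 had the largest rise in the brain among those called. Its control brains held 2.78 to 3.77 TPM, its exposed brains 27.58 to 47.84 TPM and its withdrawal brains 2.1 to 7.59 TPM, and the rescaled difference was 1.80 (log2, SE 0.111, limma adjusted p = 1.17e-07). In the liver it held 2.28 to 8.52 TPM under alcohol and less in every other liver. The transcript ranked 43 held 0.99 to 6.02 TPM in control brains, 19.03 to 31.52 TPM in exposed brains and 1.51 to 7.42 TPM in withdrawal brains, a difference of 1.46 (log2, SE 0.105, limma adjusted p = 4.85e-07). The transcript ranked 8 held 2.04 to 8.64 TPM in control brains, while its exposed brains held 26.35 to 49.37 TPM, a difference of 1.42 (log2, SE 0.152, limma adjusted p = 1.38e-05). In these 3, all exposed brains lay above all control brains by deposited values, as for 57.1% of all tested. The 3 were picked as the largest brain rises and their rise in the liver was fixed by the rule, so a shared direction is not a result.

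The transcript ranked 42 went the opposite way in the brain. Control brains held 4.62 to 42.29 TPM, exposed brains 0 to 0.17 TPM and withdrawal brains 0.71 to 23.67 TPM, a difference of -4.31 (log2, SE 0.483, limma adjusted p = 2.1e-05). In the liver it held 6.50 to 16.14 TPM under alcohol against at most 4.07 TPM elsewhere. ENSDART00000170216.1 was far more abundant in the brain than in the liver, with 546.5 to 1151.54 TPM in control brains. Exposed brains held 568.18 to 629.92 TPM and withdrawal brains 657.46 to 1554.56 TPM. Its rescaled difference was -1.90 (log2, SE 0.0743, limma adjusted p = 2.48e-09), and it turned to 0.36 with quantile normalisation. ENSDART00000032996.5 held 25.39 to 42.06 TPM in control brains, while exposed brains held 32.86 to 44.77 TPM, so its deposited values overlapped. Its rescaled difference was -1.21 (log2, SE 0.0747, limma adjusted p = 1.22e-07), and it turned to 0.25 without rescaling. The transcript ranked 39 was lower in exposed brains by -1.95 (log2, SE 0.264, limma adjusted p = 9.61e-05), and without rescaling the difference was -0.54 with an adjusted p of 0.0987. The transcript ranked 46, which reached 325.06 and 352.95 TPM in exposed female livers, did not pass the brain filter.

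The control brains were not alike between the sexes. The control female and withdrawal male brains all lay above the control male and withdrawal female brains for 16 of the 57 after rescaling, beside 12.9% of all tested transcripts. They all lay below for 7 of the 57, beside 12.7% of all tested. ENSDART00000170216.1 was of the first kind: withdrawal males held 1458.67 to 1554.56 TPM and control females 952.73 to 1151.54 TPM, whereas control males held 546.5 and 609.55 TPM and withdrawal females 657.46 and 667.2 TPM. The effect of alcohol in the brain differed between the sexes for 21 of the 57 by a limma test of the difference, also added after seeing the data, beside 27.5% of all tested. This test also sets the control brains of the sexes against each other, and their part in it was not tested. The signed female minus male difference was positive for 4 of the 57, beside 13.7% of all tested. It was negative for 17 of the 57, a larger share than the 13.8% of all tested. A negative value can be a smaller rise or a larger fall in females, or a fall beside a rise in males.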

How the data were processed

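The authors deposited TPM per transcript for 12 liver and 14 brain libraries. Per the series' design text and the submitters' processing notes, reads were checked with FastQC 0.11.7, aligned to danRer10 with STAR 2.5.2 and quantified with RSEM 1.3.1. TPM carries no depth, so depth is unknown here, and neither a count test nor a counting interval could be had. Reads of overlapping, antisense or near-identical transcripts may be shared among them.

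Members and lists were chosen with earlier results of these data known. Tests used limma 3.58.1 (R 4.3.3) with a variance trend on log2(TPM + 1), which understates the change of low transcripts, after median-of-ratios rescaling. A transcript was tested if 2 or more libraries of its tissue reached 1 TPM. The 6 group means were fitted and p-values adjusted by Benjamini-Hochberg over the tissue; the scripts were tested on simulated data. Lists of liver pathway genes and of cell type markers were prepared but not applied, since no table used here pairs these identifiers with genes; sequences were not used for the same reason. The transcripts described are the first 8 by separation, the first 6 by level, the leading called transcripts of each comparison in each direction (3 for the brain, 2 otherwise) and those nearest to the limit. No lowered member existed, so the tests planned for that direction gave no value.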

Additional observations from a re-analysis of the deposited data

Results flagged for a closer look

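Among the members described, the effect of withdrawal against control in the liver differed between females and males for 7 transcripts, by a limma test of the difference with Benjamini-Hochberg adjustment. This test was added after seeing the data. It called 21 of the 60, beside 50.4% of all tested transcripts. The male side of it rests on the control male livers that stand apart. The female minus male differences (log2) were as follows. They were 2.75 for rank 35 (SE 0.443, limma adjusted p = 0.00132), 1.52 for rank 8 (SE 0.323, limma adjusted p = 0.00503) and 1.24 for rank 12 (SE 0.318, limma adjusted p = 0.0117). They were -2.22 for rank 28 (SE 0.301, limma adjusted p = 0.000583), -1.05 for rank 6 (SE 0.187, limma adjusted p = 0.00213), -1.01 for rank 43 (SE 0.185, limma adjusted p = 0.00251) and -0.81 for rank 4 (SE 0.29, limma adjusted p = 0.0448). The transcript ranked 35 held 26.91 and 53.64 TPM in control males and 28.32 and 24.76 TPM in withdrawal males, but 10.98 and 8.36 TPM in control females and 45.11 and 45.76 TPM in withdrawal females.

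The effect of alcohol against control in the brain differed between the sexes for 8 described transcripts, all with a negative female minus male difference. The difference is signed. After rescaling, ranks 1, 4, 5 and 23 were lower in exposed brains over both sexes. By deposited values, exposed males lay above control males for ranks 4, 5 and 23 and overlapped them for rank 1. Rank 4 held 25.76 and 24.56 TPM in control males and 69.44 and 65.64 TPM in exposed males. Its control females held 55.68 to 64.24 TPM and its exposed females 47.83 and 44.58 TPM. Those deposited values are without rescaling, whereas the test used rescaled values. On the rescaled scale, the fitted effects of ranks 1, 4, 5 and 23 were falls in both sexes, larger in females. The brain effect was not tested within each sex. The same added test called 21 of 57, beside 27.5% of all tested. It rests in part on the control brains, which were not alike between the sexes, and their part was not tested. The test called 4 of the 57 with a positive difference, beside 13.7% of all tested, and 17 of the 57 with a negative one, beside 13.8%. The female minus male differences (log2) were -4.51 for rank 2 (SE 0.513, limma adjusted p = 0.000434), -1.83 for rank 43 (SE 0.211, limma adjusted p = 0.00046), -1.70 for rank 8 (SE 0.304, limma adjusted p = 0.00332) and -1.59 for rank 23 (SE 0.141, limma adjusted p = 0.000132). They were -1.39 for rank 4 (SE 0.11, limma adjusted p = 7.28e-05), -1.38 for rank 5 (SE 0.135, limma adjusted p = 0.000208), -0.94 for rank 28 (SE 0.262, limma adjusted p = 0.0234) and -0.52 for rank 1 (SE 0.149, limma adjusted p = 0.0254). The transcript ranked 2 held 0.68 and 0.21 TPM in control male brains and 25.5 and 19.79 TPM in exposed male brains, against 2.8 to 7.36 TPM in control female and 2.39 and 2.37 TPM in exposed female brains.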

How the results depend on the processing

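The number of raised transcripts, 60, became 110 with a fold limit looser than 1.5, 22 with a limit of 2 times, 37 with at least 5 TPM and 40 after rescaling, of which 38 were among the 60. All 60 still had every exposed liver above every other liver after rescaling. The number was 1246 in males alone and 838 in females alone, and 147 without both control male livers, an alternative chosen after seeing the data. It was 61 to 87 with 1 liver left out. Under this rule, leaving out livers can only keep or add transcripts, raised or lowered. None of these leave-out counts could thus fall below the count with all livers. The number lowered, 0 (an ordering rule with no p-value), became 2 with the looser fold limit, 1 with at least 1 TPM, 3 after rescaling, 161 in males alone, 264 in females alone, 45 without both control male livers and 0 to 6 with 1 liver left out. With near-identical pairs averaged, calls were 19 for withdrawal against control, 4 within females and 11 between the exposed sexes. Calls within females were 10 with a pseudocount of 5, beside 6869 of all 21158 tested. With 1 library left out, calls were 25 to 32 over both sexes, 23 to 26 in males, 7 to 9 in females, 14 to 26 between the exposed sexes and 39 to 43 in the brain. With a replicate block, calls were 31, 33, 20, 22 and 39 in the same order. Over all tested they were 13022, 12840, 6894 and 6002 of 21158 liver transcripts and 18672 of 36682 brain transcripts. The share of all tested transcripts called was also lower with 1 library left out and with near-identical pairs averaged, in each comparison given. Lower counts in those repeats are thus not read as a trait of the 60. Same-numbered libraries did not deviate together (r of -0.05 to 0.08 in the liver and -0.17 to 0.08 in the brain). ENSDART00000170216.1 reversed in the brain to 0.36 with quantile normalisation. ENSDART00000032996.5 reversed in the brain to 0.25 without rescaling. Between the exposed sexes it was 0.14 with quantile normalisation and ran from -0.50 to 0.079 with 1 exposed liver left out, the positive value coming without exposed male 2, and it was not called. Of 358 repeats over 23 single-transcript results, 338 kept direction and side of the threshold, 14 lost the call, 2 gained it and 4 reversed. The causes were not tested. Depth is unknown from TPM.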
